A study of Mus musculus with 5 samples.

Results

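The genes described here are those of the spliceosome and of the SR and hnRNP proteins that guide it. They were chosen by name, as genes whose symbol on the array begins with Hnrnp, Srsf, Sf3a, Sf3b, U2af, Snrp or Prpf, and 62 of the 22180 genes measured fit that rule. Another 5 genes of these names, Hnrnpa1, Hnrnph3, Snrpa, Snrpf and Snrpn, share every listed array feature with further genes and were not analysed here. The samples were 5 arrays of RNA from hematopoietic stem cells (HSCs), the rare bone marrow cells that renew the blood. In 2 of them, stem and progenitor cells of C57BL/6 mice had been cultured for 24 h with 5 µM all-trans retinoic acid (ATRA), the vitamin A derivative that activates retinoic acid receptors, and in 3 with DMSO as the control. In all 5 samples the HSCs were sorted by flow cytometry after the culture, so the RNA is that of cells which still met the sort gate. The labels do not say whether replicates came from separate cultures or animals or how many mice were pooled, so each p-value here speaks of variation among the arrays at hand, part or all of which may be technical.

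Splicing removes introns from nuclear transcripts. Small nuclear ribonucleoproteins (snRNPs) each hold a small nuclear RNA, a ring of Sm or Sm-like proteins and a set of proteins of their own. The snRNPs recognise the ends of an intron and the branch point near its end. They then assemble into the catalytic spliceosome together with PRPF proteins. SR proteins, named for their serine and arginine repeats, mostly bind exons and help the snRNPs to find them, while hnRNP proteins coat nascent transcripts and often act against exon use. Recurrent mutations of SF3B1, U2AF1 and SRSF2 in human myelodysplastic syndromes tie this machinery to blood stem cells.

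The values are deposited log2 expression values, in which a difference of 1 is a 2-fold change. The ATRA arrays were more compressed than the DMSO arrays, with an SD over all features of 1.77 in ATRA replicate 1 and 1.49 in ATRA replicate 2, against 1.96 to 1.97 in the DMSO arrays. Pearson's r over features was 0.730 between the ATRA arrays and 0.966 to 0.978 among the DMSO arrays. Of the HSC and progenitor markers, 7 of 9 were measured, and 5 of these lay above the median of all features (6.07) in both ATRA arrays and 7 in every DMSO array. Their summed log2 level was 53.4 and 48.0 in ATRA arrays and 60.5 to 62.0 in DMSO arrays. By the limma test used below, 4 of them fell, as did 15.5% of all genes. The summed log2 level of the 7 neutrophil and monocyte markers was 43.0 and 42.7 in ATRA arrays and 38.2 to 41.3 in DMSO arrays, and that of 6 B, T and NK markers 36.9 and 37.0 in ATRA arrays and 32.6 to 33.8 in DMSO arrays. The 5 stroma and endothelium markers summed to 33.7 and 33.9 in ATRA arrays and 31.6 to 32.3 in DMSO arrays, and the 3 measured erythroid and megakaryocyte markers to 23.6 and 23.3 in ATRA arrays and 24.7 to 25.7 in DMSO arrays. By the same test, S100a9, Cd3g and Cdh5 rose and Itga2b fell among these other cell type markers, against 6.48% and 15.5% of all genes. Over all genes, the median difference was 0.45 at a DMSO mean (mean of the DMSO arrays) from 5 to 6 and -1.33 from 8 to 9. The marker sums were not compared with genes of the same level. The part of other cells, of the compression and of the spread between the ATRA arrays in the results below was not tested. In bulk samples, fewer cells of a type and less RNA per cell cannot be told apart.

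Most splicing genes had lower values in the ATRA arrays than in the DMSO arrays. Of the 62 genes, 30 fell, 3 rose and 29 did not pass (limma, Benjamini-Hochberg adjusted p under 0.05 over all genes). The 48.4% that fell stand against 15.5% of all genes tested, and the 4.84% that rose against 6.48%, while 21.9% of all genes passed in either direction. The splicing genes had a median DMSO mean of 9.34, and 57.5% of all genes with a DMSO mean from 9 to 10 fell. The median log2 difference was -1.84 over the splicing genes, and 0.16 over all genes tested. Both ATRA values lay below all 3 DMSO values in 49 of the 62 genes (29.2% of all genes) and above them in 3 (33% of all genes). The falls ranged in role from Prpf8, at the core of the spliceosome, to Srsf1, the founding SR protein, and Hnrnpu, a nuclear scaffold protein, while the 3 genes that rose were Snrpg, Sf3b4 and Hnrnpa1l2-ps2. The calls of Srsf1 and Hnrnpu were lost when the features of a gene were averaged.

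**Figure D1:**
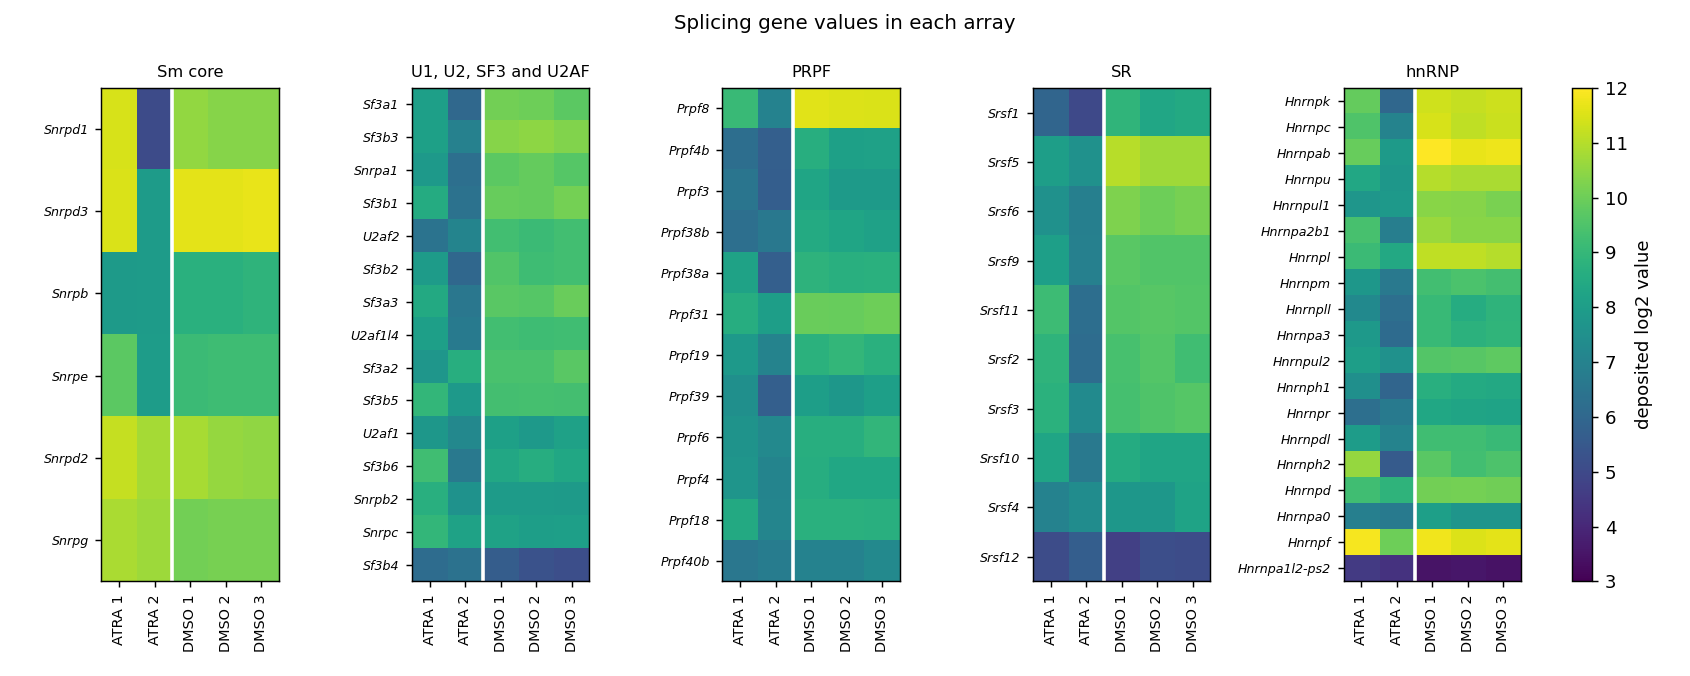
Deposited log2 value (colour) of each of the 62 splicing genes (rows) in the 2 ATRA and 3 DMSO arrays (columns), by role and ordered by difference. Most rows are darker in the ATRA arrays, and ATRA replicate 2 is darker than ATRA replicate 1 in 52 of the 62.

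These calls depend on the arrays included. Leaving out DMSO replicate 1, 2 or 3 ended every limma call in the table (0% of all genes), and 34, 39 and 37 splicing genes then had an unadjusted p under 0.05, as did 27%, 27.3% and 26.6% of all genes. Without ATRA replicate 1, 54 splicing genes passed as lower (30.6% of all genes) and 2 as higher (33.5% of all genes). Without ATRA replicate 2, 42 passed as lower (21.3% of all genes) and 8 as higher (13.3% of all genes). In both of these fits the spread comes from DMSO alone and is taken to hold for the single ATRA array. Quantile normalization left 16 splicing genes lower (7.86% of all genes), cyclic loess 12 (6.78% of all genes) and a fit without the empirical Bayes prior 10 (5.61% of all genes). After each array was centred on its median, 1 of the 62 splicing genes passed as higher (2.52% of all genes) and 38 as lower (4542 of all 22180 genes). With dim features left out, 59 splicing genes remained, and Sf3b4 and Hnrnpa1l2-ps2, which had risen, were removed. Of the 59, 1 passed as higher (4.21% of the genes kept) and 36 as lower (3887 of the 11866 genes kept). All 33 called genes kept their direction in each of the 5 fits that left out an array. That had to be so, since both ATRA values of each lay on the same side of all its DMSO values. Yet Snrpb, Prpf31, Sf3a2 and Hnrnpd, all called lower, had differences above 0 after cyclic loess (0.46, 0.05, 0.26 and 0.77). For a single gene, 2 against 3 arrays allow an exact permutation p no smaller than 0.1. In 12 splicing genes a pair of DMSO arrays held the same value to the last deposited digit, as in 8858 of all genes.

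Promoter sequence was read for 54 of the 62 genes from RefSeq on build GRCm38.p6, as 300 bases per gene from 250 before to 50 after its most upstream listed start. These promoters were rich in CpG, with a median of 25 CpG dinucleotides against 13 in the promoters of 17491 protein-coding genes. The CCAAT box, searched on both strands as CCAAT, was present in 27 of the 54 promoters (50%) and in 39.2% of all. The ETS core CCGGAAGT was present in 10 of 54 (18.5%) and in 5.28% of all, the E-box CACGTG in 7 of 54 (13%) and 7.91%, and TATAAA in 6 of 54 (11.1%) and 13.3%. Retinoic acid receptors bind direct repeats of a 6-base half-site. Tandem pairs of the half-site AGGTCA, its variant AGTTCA, the form GGGTCA or the form GGTTCA, with 1, 2 or 5 bases between them were found in 0 of the 54 promoters, and in 0.183%, 0.0972% and 0.0858% of all. The absence of a match says only that these letters are not in these windows.

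The upstream 250 bases of 4 genes are shown, all on the plus strand and in windows where RefSeq places no gene. They show the largest called fall (Prpf8, chr11:75486527-75486776), the Sm gene that rose (Snrpg, chr6:86371290-86371539), a fallen hnRNP gene with 4 CCAAT boxes (Hnrnpr, chr4:136310692-136310941) and an ETS core in a gene that did not pass (Sf3a3, chr4:124714611-124714860). Capitals mark CCAAT or its reverse complement in the first 3 and the reverse complement of CCGGAAGT in Sf3a3.
Prpf8: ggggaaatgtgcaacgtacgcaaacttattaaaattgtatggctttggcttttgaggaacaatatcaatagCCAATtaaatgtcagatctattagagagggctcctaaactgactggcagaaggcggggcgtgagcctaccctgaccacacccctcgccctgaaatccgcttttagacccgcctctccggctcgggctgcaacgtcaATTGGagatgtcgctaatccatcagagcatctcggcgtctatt
Snrpg: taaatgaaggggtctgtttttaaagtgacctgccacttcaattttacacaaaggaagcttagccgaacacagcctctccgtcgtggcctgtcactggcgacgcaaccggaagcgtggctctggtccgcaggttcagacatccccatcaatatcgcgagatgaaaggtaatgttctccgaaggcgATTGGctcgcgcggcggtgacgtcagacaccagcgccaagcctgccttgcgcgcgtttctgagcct
Hnrnpr: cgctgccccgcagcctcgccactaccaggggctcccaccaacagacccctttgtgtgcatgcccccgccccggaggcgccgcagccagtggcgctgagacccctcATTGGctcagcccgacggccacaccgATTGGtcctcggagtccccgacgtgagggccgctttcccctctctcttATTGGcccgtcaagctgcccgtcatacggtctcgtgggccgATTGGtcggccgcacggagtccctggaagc
Sf3a3: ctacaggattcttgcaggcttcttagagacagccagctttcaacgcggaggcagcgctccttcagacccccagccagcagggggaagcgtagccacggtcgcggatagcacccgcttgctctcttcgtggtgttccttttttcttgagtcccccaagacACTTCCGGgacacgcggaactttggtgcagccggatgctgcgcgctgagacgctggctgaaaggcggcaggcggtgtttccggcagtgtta
The CCAAT box thus occurs both upstream of genes that fell (Prpf8, Hnrnpr) and of a gene that rose (Snrpg). Of the 26 promoters of genes that fell, 11 held a CCAAT box and 5 an ETS core, where 39.2% and 5.28% of all promoters did.

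The Sm proteins form the ring on which most spliceosomal snRNPs are built. Among the 6 Sm genes on the array, Snrpg rose, Snrpb fell and the other 4 did not pass. The share that fell was 16.7%, near the 15.5% of all genes, and the share that rose 16.7%, against 6.48%. Their median difference was -0.59. Of all genes with a DMSO mean from 10 to 11, where the Sm median of 10.28 lay, 51.7% fell. Snrpg was at 10.84 and 10.69 in the ATRA arrays, and at 10.09, 10.15 and 10.15 in the DMSO arrays. Each ATRA array exceeded each DMSO array, and the gene rose by 0.64 (SE 0.12, limma adjusted p = 0.0281). Snrpb, whose product is the B protein of the ring, was at 7.89 and 7.93 in ATRA and at 8.73, 8.73 and 8.85 in DMSO. The ATRA values were nearly equal and below all DMSO values, and Snrpb fell by 0.86 (SE 0.11, limma adjusted p = 0.0144). Snrpd2, a ring subunit, was at 11.21 and 10.77 in ATRA and at 10.82, 10.56 and 10.50 in DMSO, with overlapping groups (difference 0.36, SE 0.20, adjusted p = 0.231).

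In the other Sm genes the ATRA arrays went apart. Snrpe was at 9.74 and 7.97 in ATRA replicates 1 and 2, against 9.12, 9.20 and 9.20 in DMSO, and the mean difference of -0.32 (SE 0.55, adjusted p = 0.648) joins a higher and a lower array. Snrpd1, another ring subunit, was at 11.45 and 5.04 in ATRA replicates 1 and 2, against 10.54, 10.36 and 10.37 in DMSO. The difference of -2.18 had an SE of 1.95 (adjusted p = 0.389), since replicate 1 lay above and replicate 2 far below every DMSO value. A second feature of Snrpd1 read 8.52 and 8.12 in ATRA and 7.88, 7.71 and 7.98 in DMSO, which is 0.46 higher with ATRA, so the low value of replicate 2 was not seen there. Snrpd3, also of the ring, was at 11.48 and 7.94 in ATRA, against 11.62, 11.63 and 11.70 in DMSO (difference -1.94, SE 1.08, adjusted p = 0.233).

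**Figure D2:**
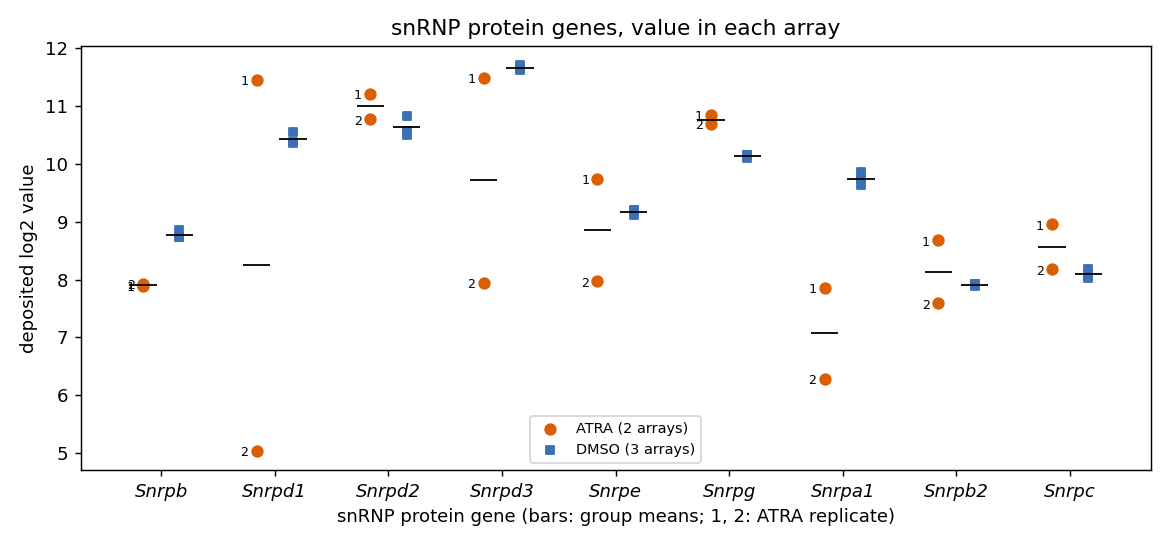
Deposited log2 value in each array for the 6 Sm genes and the U1 and U2 snRNP genes Snrpa1, Snrpb2 and Snrpc, with ATRA arrays left (circles, numbered by replicate), DMSO arrays right (squares) and a bar at each group mean. Snrpg is higher in both ATRA arrays, Snrpb and Snrpa1 are lower in both, and Snrpd1 and Snrpd3 have ATRA values more than 3 apart.

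The U1 and U2 snRNP proteins, the SF3A and SF3B complexes of the U2 snRNP, and the U2AF proteins define the ends of an intron and its branch point. Of the 15 measured genes, 6 fell (40%, against 15.5% of all genes), 1 rose (6.67%, against 6.48% of all genes) and 8 did not pass. Their median difference was -1.85. With a median DMSO mean of 9.33, they lay in the class from 9 to 10, where 57.5% of all genes fell. U2af2, the large U2AF subunit that binds the polypyrimidine tract, was at 6.44 and 7.05 in ATRA and at 9.26, 9.13 and 9.27 in DMSO. It fell by 2.48 (SE 0.22, limma adjusted p = 0.00771), which is 5.58-fold lower. Its partner U2af1, which reads the AG at the end of the intron, was at 7.78 and 7.20 in ATRA and at 8.13, 7.84 and 8.15 in DMSO (difference -0.55, SE 0.23, adjusted p = 0.148). Both ATRA values were lower for both partners. The difference between these genes in size of change was not tested.

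Sf3b3, a large scaffold subunit of SF3B, fell by 2.85 (SE 0.36, adjusted p = 0.0136), with 8.10 and 6.96 in ATRA and 10.36, 10.46 and 10.31 in DMSO. Snrpa1, the U2 A′ protein, fell by 2.67 (SE 0.49, adjusted p = 0.0287), with 7.86 and 6.29 in ATRA and 9.74, 9.86 and 9.63 in DMSO. Sf3a1, Sf3a2 and U2af1l4, a relative of U2af1, were the other falls, with log2 differences of -2.89, -1.32 and -1.85. Sf3b1, the branch point subunit often mutated in human myelodysplastic syndromes, was at 8.52 and 6.41 in ATRA and at 9.92, 9.87 and 10.11 in DMSO. Its difference of -2.50 was as large as that of U2af2, but the ATRA arrays lay apart and it did not pass (SE 0.66, adjusted p = 0.0602). Sf3b4, a small subunit that touches the RNA near the branch point, rose by 0.93 (SE 0.21, adjusted p = 0.0423), with 6.18 and 6.41 in ATRA and 5.67, 5.28 and 5.16 in DMSO. It lies below the median feature in DMSO, and its call was lost when either ATRA array was left out (adjusted p = 0.0555 without replicate 1 and 0.129 without replicate 2).

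Of the remaining genes of these particles, Snrpb2 and Snrpc had the only differences above 0 besides Sf3b4. Snrpb2, the U2 B″ protein, was at 8.68 and 7.59 in ATRA and at 7.93, 7.93 and 7.89 in DMSO (difference 0.22, SE 0.35, adjusted p = 0.614). Snrpc, which helps U1 to hold the start of the intron, was at 8.95 and 8.18 in ATRA and at 8.18, 8.03 and 8.08 in DMSO (difference 0.47, adjusted p = 0.232). Sf3b5, a small SF3B subunit, was at 8.97 and 7.82 in ATRA, below the 9.32, 9.36 and 9.32 of DMSO, and did not pass (difference -0.94, adjusted p = 0.133). Sf3b6, another, differed from the DMSO mean by 0.79 in ATRA replicate 1 and -1.82 in ATRA replicate 2 (mean difference -0.52, adjusted p = 0.61). Of these 4 genes none passed limma, and 0 had an unadjusted p under 0.05 (40.3% of all genes, in either direction). Sf3b2 (-2.37, limma adjusted p = 0.0573) and Sf3a3 (-2.22, limma adjusted p = 0.0629) did not pass either. Both had an unadjusted p under 0.05.

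The PRPF proteins serve the tri-snRNP, the complex around Prpf19 and the catalytic core. All 12 measured genes had both ATRA values below all DMSO values (29.2% of all genes). Of these 12, 8 fell (66.7%, against 15.5% of all genes) and 4 did not pass, and the median difference was -1.51. At an unadjusted limma p under 0.05, 9 passed (40.3% of all genes, in either direction). From 8 to 9, where the median DMSO mean of the PRPF genes lay (8.57), 52.4% of all genes fell. Prpf8, the large protein that cradles the active site, was at 9.11 and 7.0 in ATRA and at 11.58, 11.52 and 11.49 in DMSO. It fell by 3.48 (SE 0.65, limma adjusted p = 0.0295), an 11.2-fold lower value. Prpf38b, a spliceosome-associated protein, fell by 1.85 (SE 0.18, adjusted p = 0.00876), with 6.30 and 6.62 in ATRA and 8.51, 8.28 and 8.16 in DMSO. Prpf4b, a kinase that phosphorylates tri-snRNP proteins, fell by 2.32 (SE 0.27, adjusted p = 0.0113), with 6.25 and 5.72 in ATRA and 8.66, 8.10 and 8.15 in DMSO. The ATRA values of Prpf38b and Prpf4b lay near the median of all features, and those of Prpf8 above it.

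Prpf31, which binds the U4 snRNA and tethers the tri-snRNP, was at 8.59 and 8.05 in ATRA and at 9.96, 9.91 and 10.01 in DMSO, and fell by 1.64 (SE 0.20, adjusted p = 0.0122). The other PRPF genes that fell were Prpf3 and Prpf4, tri-snRNP proteins, Prpf6, a bridge within it, and Prpf19, a ubiquitin ligase, with log2 differences of -1.93, -1.07, -1.30 and -1.37. Prpf18, a factor of the second catalytic step, was at 8.46 and 7.10 in ATRA and at 8.72, 8.71 and 8.67 in DMSO, and did not pass (difference -0.92, SE 0.43, adjusted p = 0.178). Prpf40b, a homolog of a yeast U1 protein, had the smallest difference, at -0.40 (adjusted p = 0.113).

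**Figure D3:**
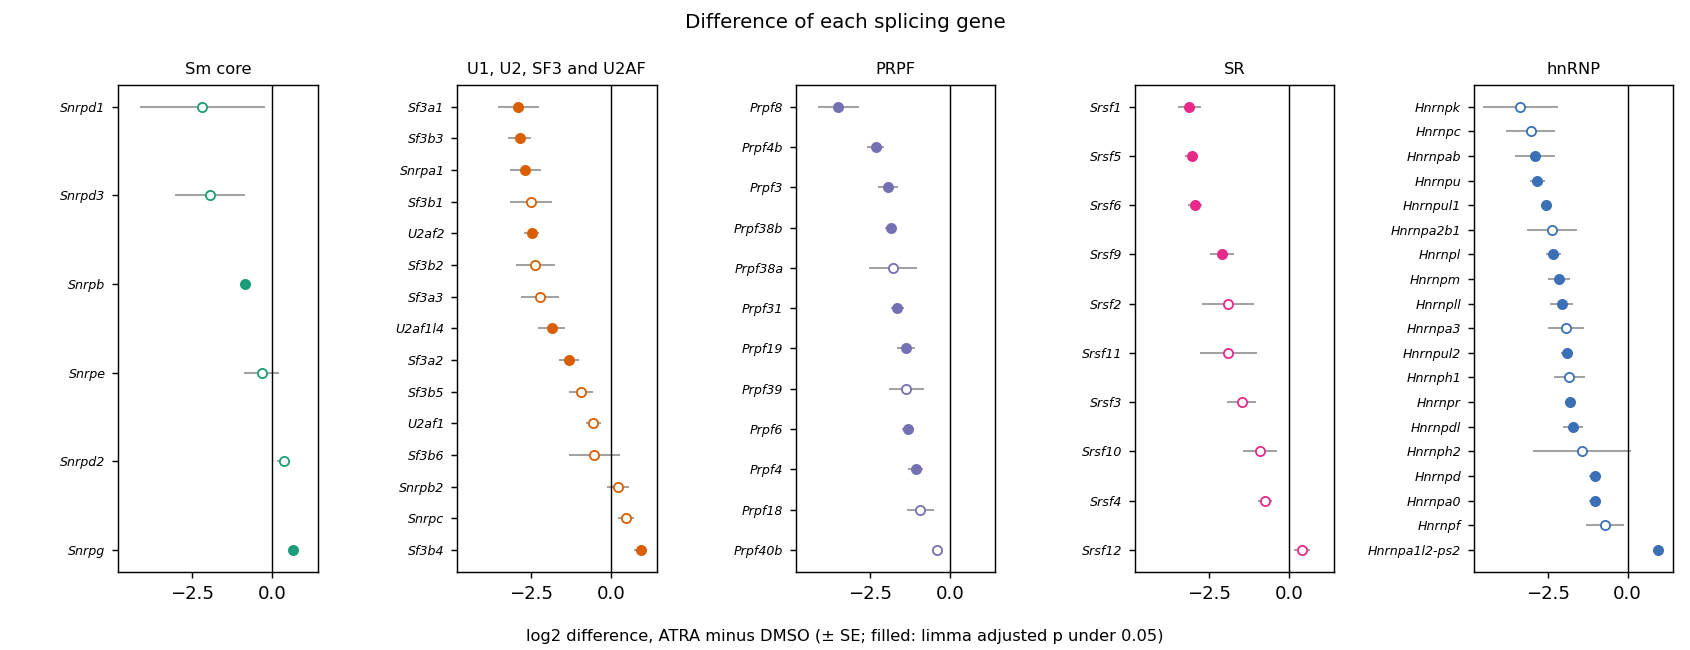
Log2 difference, ATRA minus DMSO, of each splicing gene by role, with bars of 1 SE from limma and filled points for an adjusted p under 0.05. All 12 PRPF genes lie left of 0, and the right side holds Snrpg, Snrpd2, Snrpb2, Snrpc, Sf3b4, Srsf12 and Hnrnpa1l2-ps2.

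Among the SR proteins, 4 of 10 genes fell (40%, against 15.5% of all genes), 0 rose (6.48% of all genes) and 6 did not pass. Their median difference was -1.89. At an unadjusted limma p under 0.05, 0 were higher and 6 lower, where 40.3% of all genes passed in either direction. The SR genes had a median DMSO mean of 9.45, and from 9 to 10, 57.5% of all genes fell. Srsf5 was at 8.05 and 7.55 in ATRA and at 11.03, 10.73 and 10.72 in DMSO, and fell by 3.03 (SE 0.21, limma adjusted p = 0.00675). Srsf6, close to it in sequence, was at 7.54 and 6.90 in ATRA and at 10.27, 10.02 and 10.15 in DMSO, and fell by 2.93 (SE 0.23, adjusted p = 0.0073). Srsf1, which also acts in mRNA export and translation, was at 5.93 and 5.00 in ATRA and at 8.89, 8.32 and 8.48 in DMSO. It fell by 3.10 (SE 0.35, adjusted p = 0.011), and both ATRA values were under the median of all features. The second Srsf1 feature, with 6.55 and 4.56 in ATRA and 5.36 in each DMSO array, differed by 0.20, and with the mean of both features the call was lost (difference -1.45, adjusted p = 0.0904). Srsf9 was the fourth fall, at -2.09.

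Srsf2, the SR protein mutated in human myelodysplastic syndromes, was at 8.85 and 6.18 in ATRA and at 9.39, 9.58 and 9.25 in DMSO (difference -1.89, SE 0.82, adjusted p = 0.161). Srsf3, the smallest of the classical SR proteins, was at 8.76 and 7.30 in ATRA and at 9.36, 9.51 and 9.63 in DMSO (difference -1.47, SE 0.46, adjusted p = 0.0875). In both, ATRA replicate 1 was little below DMSO and replicate 2 well below it. Srsf12 was at 5.10 and 5.70 in ATRA and at 4.71, 5.15 and 5.10 in DMSO, with overlapping groups below the median of all features.

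Of 19 hnRNP genes, 11 fell (57.9%, against 15.5% of all genes), 1 rose (5.26%, against 6.48% of all genes) and 7 did not pass. Their median difference was -1.92. The hnRNP genes had a median DMSO mean of 9.68, and 57.5% of all genes with a DMSO mean from 9 to 10 fell. Hnrnpul1, an RNA-binding relative of Hnrnpu, had the smallest p of all splicing genes, with 7.74 and 7.82 in ATRA and 10.41, 10.38 and 10.19 in DMSO, and fell by 2.54 (SE 0.13, limma adjusted p = 0.00627). Hnrnpu, which binds chromatin-associated RNA, was at 8.41 and 7.76 in ATRA and at 11.01, 10.85 and 10.84 in DMSO, and fell by 2.82 (SE 0.23, adjusted p = 0.00739). With the mean of its 2 features the call of Hnrnpu was lost (difference -2.34, adjusted p = 0.0618). Hnrnpr was at 6.30 and 6.66 in ATRA and at 8.36, 8.27 and 8.21 in DMSO, and fell by 1.80 (SE 0.16, adjusted p = 0.0078). In the features used for these genes both ATRA arrays were far below DMSO and close to each other. Other falls ranged from -1.02 for Hnrnpa0 to -2.90 for Hnrnpab, and took in Hnrnpl, Hnrnpul2, Hnrnpm, Hnrnpll, Hnrnpd and Hnrnpdl.

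Hnrnpk, a poly(C)-binding regulator of transcription and translation, was at 9.86 and 6.01 in ATRA and at 11.36, 11.21 and 11.31 in DMSO. Its difference of -3.35 was second in size to that of Prpf8 and did not pass (SE 1.17, adjusted p = 0.108). Its 2 further features differed by only -0.87 and -0.67, with ATRA values from 8.50 to 9.20. Hnrnph2, a G-tract binder, was at 10.57 and 5.57 in ATRA and at 9.69, 9.28 and 9.47 in DMSO, above and below DMSO in the ATRA arrays (difference -1.41, SE 1.53, adjusted p = 0.469). Its second feature was lower in both, with 5.15 and 4.89 in ATRA and 7.41, 7.03 and 7.03 in DMSO. Hnrnpf, a close relative of Hnrnph2, had a DMSO mean of 11.66, from which ATRA replicate 1 differed by 0.23 and ATRA replicate 2 by -1.66. Hnrnpa1l2-ps2, which carries a pseudogene name and resembles Hnrnpa1, rose by 0.95 (SE 0.13, adjusted p = 0.0148) at a low level, with 4.54 and 4.33 in ATRA and 3.48, 3.54 and 3.45 in DMSO. A feature shared in sequence with near-identical copies of Hnrnpa1 could not tell them apart.

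The size of the differences followed the level in DMSO. The splicing genes had a median DMSO mean of 9.34, against 6.2 over all genes tested. Of the 19 splicing genes with a DMSO mean from 9 to 10, 10 fell (52.6%), as did 57.5% of all 1223 genes of that level, and their medians were -1.89 and -1.94. From 8 to 9, 10 of 18 splicing genes fell (55.6%) and 52.4% of 2582 genes, with medians of -1.57 and -1.33. From 10 to 11, 6 of 10 fell (60%) and 51.7% of 466 genes, with medians of -2.45 and -2.35. The gap was widest from 11 to 12, where 3 of 7 fell (42.9%) and 33.8% of 133 genes, with medians of -2.90 and -2.36. From 7 to 8, 1 of 5 fell (20%) and 28.1% of 3409 genes, with medians of -0.75 and -0.64. Taken against the median of all genes in the same class of DMSO level, 32 splicing genes lay below and 30 above it, with a median of -0.02.

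**Figure D4:**
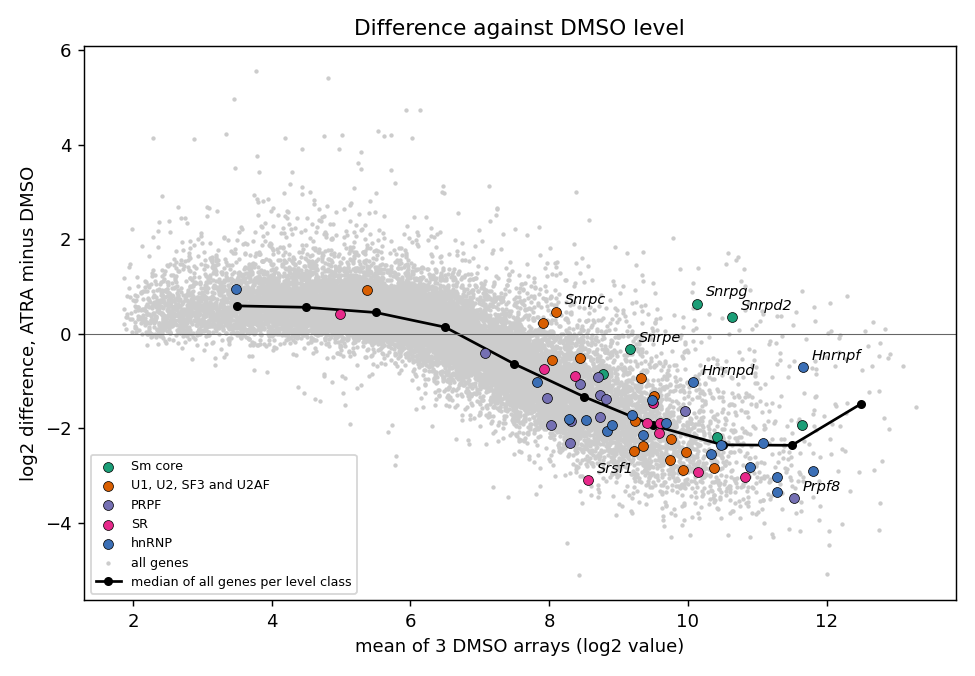
Log2 difference, ATRA minus DMSO, against the mean of the 3 DMSO arrays for the splicing genes (coloured by role) and all genes (grey), with the median of all genes in classes of 1 log2 unit that hold at least 20 genes (black). The splicing genes spread on both sides of the black line, with Snrpg and Snrpd2 far above it and Srsf1 below it.

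Single groups and genes stood off that level line. All 6 Sm genes lay above the median of their class, by a median of 1.04, and so did 8 of the 9 Snrp genes, where Snrpa1 was at -0.73. Array by array, all 6 Sm genes were above their class in ATRA replicate 1 and 4 in ATRA replicate 2, and 6 of the 9 Snrp genes were above it in both. Snrpd1, at 0.17, joins 2.45 in ATRA replicate 1 and -2.15 in ATRA replicate 2, and Snrpd3 was at 0.90 and -0.15. Snrpg and Snrpd2 were 2.99 and 2.71 above their class, Snrpc 1.80, Hnrnpf 1.65, Snrpe 1.62 and Hnrnpd 1.32. Below their class lay Srsf1, at -1.77 (-1.66 in ATRA replicate 1 and -1.84 in ATRA replicate 2), and Prpf8, at -1.12. PRPF, SR and hnRNP genes were at medians of -0.24, -0.13 and -0.21 from their classes. The difference between roles was not tested.

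When a curve on the DMSO level was subtracted from every array before the limma fit, 6 splicing genes passed as higher (2.28% of all genes) and 1 as lower (1.01% of all genes). The higher ones were Snrpc (1.56, adjusted p = 0.0169), Hnrnpf (2.29, adjusted p = 0.0188), Sf3b5 (0.93, adjusted p = 0.033), Snrpg (2.92, adjusted p = 0.0397), Snrpd2 (2.88, adjusted p = 0.0413) and Snrpe (1.46, adjusted p = 0.0436). The lower one was Srsf1 (-1.69, adjusted p = 0.0259). Srsf1 and Snrpg passed with and without the curve, and the other calls ended. These 6 and 1 are differences from other genes of the same level, not from DMSO: Sf3b5 (-0.94), Hnrnpf (-0.71) and Snrpe (-0.32) had lower means in ATRA than in DMSO, and both ATRA values of Sf3b5 were below all its DMSO values.

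Ranks within an array do not depend on its scale. They were not set against those of other genes of the same level. The median splicing gene stood at percentile 90.6 of all genes in ATRA replicate 1 and 76.3 in ATRA replicate 2, against 93.6 to 93.7 in the DMSO arrays. Sm genes stood at 99.3 and 96.0 in ATRA and at 97.9 in each DMSO array. Snrpg was at percentile 99.2 and 99.7 in ATRA and 97.3 to 97.6 in DMSO, and Snrpb2 at 94.8 and 92.5 in ATRA and 78.2 to 79.2 in DMSO. Srsf1 was at 37.4 and 11.6 in ATRA and 84.6 to 90.1 in DMSO. Snrpb, called lower by its value, was at percentile 89.0 and 95.8 in ATRA and 88.4 to 90.3 in DMSO, within the DMSO range in ATRA replicate 1 and above it in ATRA replicate 2. U2af1, with both ATRA values below DMSO, stood higher in rank, at 87.6 and 84.9 in ATRA and 77.9 to 82.2 in DMSO.

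The ATRA arrays differed from each other in most splicing genes. ATRA replicate 2 was below ATRA replicate 1 in 52 of the 62, and in 9637 of all 22180 genes. The median gap between them was 1.03 over the splicing genes and 0.51 over all genes. Taken singly against the DMSO mean, ATRA replicate 1 had a median of -1.07 and ATRA replicate 2 a median of -2.28. In 6 genes the ATRA arrays lay on opposite sides of the DMSO mean, and in 4 genes, Snrpd1, Hnrnph2, Hnrnpk and Snrpd3, they were more than 3 apart, as in 360 of all genes. Gaps under 0.5 were found in 14 splicing genes and 10911 of all genes, among them Hnrnpul1, Snrpb and Snrpg. Sf3a2 was a gene in which replicate 2 was the higher, with 7.73 and 8.65 in ATRA and 9.42, 9.42 and 9.69 in DMSO.

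**Figure D5:**
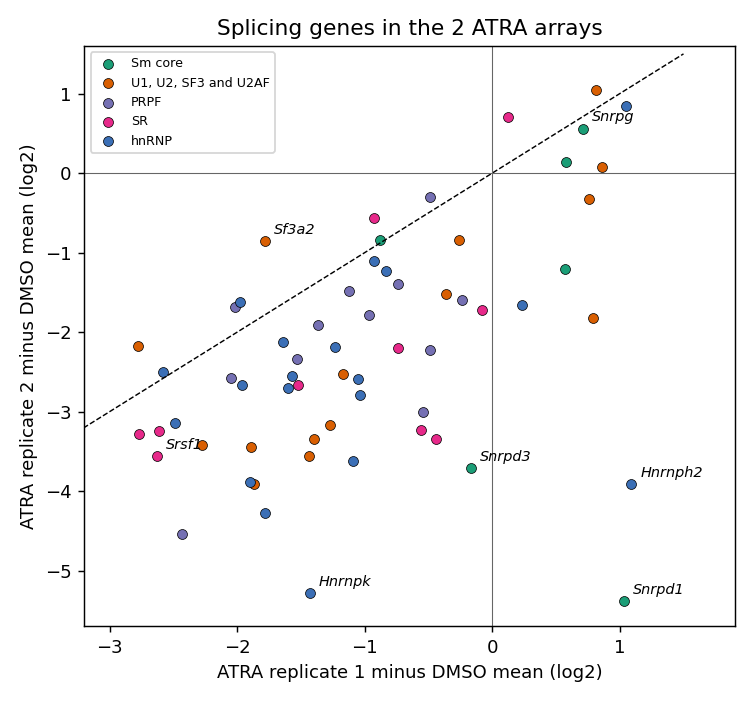
Difference of each splicing gene from the DMSO mean in ATRA replicate 2 (vertical, log2) against ATRA replicate 1 (horizontal, log2), coloured by role, with a dashed line of equal values. Most points lie below the line, and Snrpd1 and Hnrnph2 are higher in replicate 1 and lower in replicate 2.

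Several features named 12 of the splicing genes. In 8 of these genes every feature differed in the same direction, and in 4 genes (Hnrnpd, Hnrnpf, Snrpd1 and Srsf1) the features went both ways. The 5 features of Hnrnpf ranged from -1.29 to 0.55. The brightest feature, used here by rule, had a more negative difference than the second in Hnrnpu (-2.82 and -1.86), Hnrnpul1 (-2.54 and -0.58), Sf3b3 (-2.85 and -0.29), Sf3b2 (-2.37 and -0.72), U2af1l4 (-1.85 and -0.17) and Srsf6 (-2.93 and -0.39). The same held in Srsf1 (-3.10 and 0.20), Snrpd1 (-2.18 and 0.46), Hnrnpd (-1.03 and 0.18) and Hnrnpk (-3.35, against -0.87 and -0.67). The second features of Sf3b3, U2af1l4 and Srsf6 had overlapping groups, and that of Sf3b3 lay far below the median of all features. A dimmer feature had the more negative difference in Hnrnph2 (-1.41 for the one used and -2.14) and Hnrnpf (-0.71 for the one used and -1.29).

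The other genes of the splicing pathway, 157 listed by role from textbook knowledge, had a similar share of falls. Of 143 measured, 63 fell (44.1%, against 15.5% of all genes tested), 0 rose (6.48% of all genes) and 80 did not pass. Their median difference was -1.49. Their median DMSO mean was 8.75, and of all genes with a DMSO mean from 8 to 9, 52.4% fell. Against the median of all genes in the same class of DMSO level, their median was -0.13. At an unadjusted p under 0.05, 0 of these genes were higher and 89 lower, where 40.3% of all genes passed in either direction. Among other snRNP and tri-snRNP proteins, 14 of 33 fell, with a median of -1.35. Eftud2, the GTPase that works beside Prpf8, was at 5.79 and 5.78 in ATRA and at 9.71, 9.47 and 9.73 in DMSO, and fell by 3.85 (SE 0.14, adjusted p = 0.00627). Dhx15 (-2.84), the helicase that takes spliceosomes apart, and Snrnp40 (-2.13), a U5 protein, fell too. Among factors of the activated spliceosome, 17 of 28 fell, with a median of -1.59, such as Ctnnbl1 (-2.42), Isy1 (-2.22) and Snw1 (-1.49).

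Of 16 genes of the exon junction complex and SR-related proteins, 8 fell, with a median of -1.65, among them Rbm8a (-1.46), a core subunit of that complex, and Rnps1 (-2.50). Of 9 SR protein kinases and import factors, 4 fell, with a median of -1.24, among them Srpk1 (-2.57) and Clk2 (-1.24), kinases that phosphorylate SR proteins. Of 40 other RNA-binding regulators, 18 fell, with a median of -1.71, among them Ptbp1, the polypyrimidine tract binder, at 8.29 and 8.24 in ATRA and 11.04, 11.05 and 10.91 in DMSO (difference -2.73, SE 0.12, adjusted p = 0.00627). The SMN complex and other snRNP assembly factors held 2 falls among 17 genes (11.8%, against 15.5% of all genes), with a median of -1.30. The 2 were Ncbp1 (-2.50), a cap-binding protein, and Gemin5 (-1.65), which recognises the snRNA. These 17 genes had a median DMSO mean of 8.15, and of all genes from 8 to 9, 52.4% fell. Against the median of their level class they were at a median of -0.28, the lowest of these lists. With the curve on level removed, 3 of the 143 genes were higher (2.28% of all genes) and 5 lower (1.01% of all genes), with a median of -0.04.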

How the data were processed

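The authors deposited log2 expression values, 1 per array feature and array, on 5 Affymetrix arrays, 2 for ATRA and 3 for DMSO. Per the submitters' processing notes, RMA, oligo (version 1.36.1) and limma (version 3.28.20) were used. Which step each served is not stated. Joint normalization of the arrays is not stated either. The number of arrays limits the precision. No feature was filtered out for a low value.

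Of 41345 features, 23521 name 1 gene in the platform table, and these give 22180 genes, each represented by whichever of its features has the highest mean. The 62 splicing genes have 78 such features. ATRA was compared with DMSO by limma 3.58.1 (R 4.3.3) on 2 group means with eBayes (3 residual degrees of freedom, prior worth 1.52) as a two-sided test, and p-values were adjusted by Benjamini-Hochberg across the 22180 genes. Adjusted p-values under an alternative come from the same kind of limma fit with that setting changed. The fit was tested on simulated data with the means and spread of the DMSO arrays alone. Those data held neither the compression nor the spread of the ATRA arrays, so that test does not cover them. The curve on level is a lowess (span 0.3) of array minus DMSO mean on the DMSO mean.

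The splicing genes, the lists and the tests were chosen with earlier results of these data known. Array values are given for 28 genes: in each role the 3 with the smallest p, the largest p and any gene called higher, and Srsf1, Srsf2, Srsf3, Sf3b1, U2af1, U2af2, Prpf8 and Hnrnpk. Further genes named with values (such as Snrpd1, Snrpd3, Snrpc, Hnrnpf, Sf3a2) and the level classes were chosen after their values were seen. Alternatives left out arrays, added the replicate number as a block, and changed normalization, variance model, filter, features and threshold.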

Additional observations from a re-analysis of the deposited data

How the results depend on the processing

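Over all genes, the splicing genes that fell, those that rose, and the other splicing genes that fell and rose, the counts were 4865, 30, 3, 63 and 0 with all arrays. Leaving out an array gave 0 to 14207, 0 to 54, 0 to 8, 0 to 121 and 0 to 14 in the same order. The fits without DMSO replicate 1, 2 or 3, with the replicate block and with array weights gave 0 calls in limma, with 5991, 6065, 5907, 5412 and 4377 genes and 34, 39, 37, 38 and 40 splicing genes at an unadjusted p under 0.05. The replicate numbers do not pair the samples by the labels. The correlation of same-numbered arrays' deviations was 0.134 for number 1 and 0.0983 for number 2. ATRA replicate 2 and the differently numbered DMSO replicate 3 gave 0.0710. The deviations of 2 ATRA arrays from their mean are exact opposites, so these values are not separate checks of pairing. The replicate block, in which DMSO replicate 3 stands alone, lowered all calls to 0, which does not decide pairing either. Quantile normalization gave 2182 calls over all genes, 16 splicing genes lower and 37 other splicing genes lower. Cyclic loess gave 2275, 12 and 29, with 5 other splicing genes higher. Without the empirical Bayes prior the counts were 1691, 10 and 20. With the level trend removed they were 728, 1 and 5, with 6 splicing genes and 3 other splicing genes higher. An adjusted p under 0.1 gave 7755 calls over all genes. Centring each array left 1 splicing gene higher and 38 lower. Leaving out dim features kept 59 splicing genes, with 1 higher and 36 lower. The median difference of the splicing genes, -1.84, was -2.28 to -1.07 with an array left out, -0.41 after cyclic loess and 0.05 with the level trend removed, which by its construction sets the median at each level near 0. Centring on the median moved the median of all genes from 0.16 to -0.11 and gave 560 genes higher and 4542 lower, against 1437 and 3428.

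Directions turned as follows, and the cause was not tested. With 1 array left out, Snrpb2 ranged from -0.32 to 0.76, Hnrnpf from -1.66 to 0.23, Hnrnph2 from -3.91 to 1.09, Sf3b6 from -1.82 to 0.79, Snrpd1 from -5.38 to 1.03 and Snrpe from -1.20 to 0.57, the ends being the fits without either ATRA array. Snrpb2 was -0.05 after centring. Snrpe was 0.38 after quantile normalization. After cyclic loess, Hnrnpd was 0.77, Hnrnpf 1.57, Hnrnph2 0.14, Prpf18 0.35, Prpf31 0.05, Sf3a2 0.26, Sf3b5 0.63, Sf3b6 0.70, Snrpb 0.46, Snrpd3 0.22, Snrpe 1.28, Srsf10 0.17, Srsf12 -0.10, Srsf3 0.08, Srsf4 0.03 and U2af1 0.37. With the level trend removed, Hnrnpa2b1 was 0.09, Hnrnpab 0.17, Hnrnpd 1.22, Hnrnpdl 0.09, Hnrnpf 2.29, Hnrnph2 0.54, Hnrnpl 0.42, Hnrnpul2 0.17, Prpf18 0.57, Prpf19 0.20, Prpf31 0.56, Prpf4 0.25, Prpf6 0.21, Sf3a2 0.65, Sf3b5 0.93, Sf3b6 0.81, Snrpb 0.68, Snrpd1 0.25, Snrpd3 1.06, Snrpe 1.46, Srsf10 0.38, Srsf11 0.13, Srsf12 -0.09, Srsf2 0.02, Srsf3 0.49, Srsf4 0.21 and U2af1 0.49.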
